A study of Rattus norvegicus with 22 samples.

Results

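The chemokines examined in rat liver were the 9 ligands Ccl2, Ccl5, Cxcl1, Cxcl9, Cxcl10, Cxcl11, Cxcl12, Cxcl16 and Cx3cl1. They were chosen by gene name: every probe of the array that was not a control and whose gene name, ignoring case, was one of these 9 symbols. This gave 10 probes of the 30367 on the array and 9 of its 26316 gene names. Cxcl12 had 2 probes, annotated in the files to its transcript variants 3 and 1, and each of the other 8 genes had 1 probe. Where Cxcl12 is named alone, the value is that of the variant 3 probe, which had the higher mean signal.

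Chemokines are small secreted or membrane-held proteins that steer leukocytes along gradients by binding receptors coupled to G proteins. In liver they are made by Kupffer cells, endothelial cells, stellate cells, bile duct cells and hepatocytes, and they are known for drawing monocytes, neutrophils and lymphocytes into the sinusoids during injury and infection. Some, such as Cxcl12, are made in resting tissue, while others, such as Cxcl10 and Cxcl1, are induced by interferon or by signals that act through NF-kB.

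The livers were those of male Sprague-Dawley rats fed a control diet (CD) or a diet enriched with biologically active substances, the BASE-diet (BD). In the BASE-diet 6% salmon fat took the place of lard, and 8% linden extract, 8% pumpkin puree and 1% probiotics were added. The groups were CD 3 and BD 3, with 5 rats each after 3 months of feeding, and CD 14 and BD 14, with 6 rats each after 14 months. Each rat had 1 array of its own, on which its liver RNA carried the dye Cy5 and a common reference the dye Cy3. Per the labels, that reference was liver RNA of healthy rats 10 weeks old that were outside the experiment. Values are given as the log2 ratio of rat to reference, so that 1 is a doubling, and as the processed Cy5 signal, which is the brightness of the rat's RNA after background subtraction and dye normalization. RNA of whole liver was measured, so fewer cells of a type and less RNA per cell cannot be told apart. The p-values measure the spread between these rats. There was 1 group of rats per diet and time, all male and of 1 strain.

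The share of Cy5 spots well above background ran from 52.4 to 93.6% per array, and 19425 probes (64.0%) passed the filter on dim probes. All 8 hepatocyte markers were well above background on every array. The arrays lay on 5 slides, and all 6 BD 14 arrays shared a slide with only 2 arrays of another group, both CD 14. Over all probes tested, the correlation between 2 arrays was between -0.080 and 0.624, and the median residual SD was 0.529 on the log2 scale.

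The sequences just upstream of 4 of the genes are shown first, because these 4 ligands are known to be induced by interferon or NF-kB and had an entry in the promoter table. Ccl2 and Ccl5, which are induced in like ways, had none. They are the 250 bases before the gene's start in RefSeq on the build GRCr8, 5′ to 3′ on the gene's strand, and the capitals mark matches to the motifs named after them. The Cxcl10 promoter is chr14:15988816-15989065 on the plus strand, that of Cxcl11 is chr14:15973478-15973727 on the plus strand, that of Cxcl9 is chr14:16006916-16007165 on the plus strand and that of Cxcl1 is chr14:17479322-17479571 on the minus strand.
Cxcl10: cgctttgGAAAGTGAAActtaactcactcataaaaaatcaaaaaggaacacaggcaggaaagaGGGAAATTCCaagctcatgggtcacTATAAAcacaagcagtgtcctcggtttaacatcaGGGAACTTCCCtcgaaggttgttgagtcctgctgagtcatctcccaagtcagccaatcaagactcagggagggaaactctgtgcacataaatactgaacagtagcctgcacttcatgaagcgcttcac
Cxcl11: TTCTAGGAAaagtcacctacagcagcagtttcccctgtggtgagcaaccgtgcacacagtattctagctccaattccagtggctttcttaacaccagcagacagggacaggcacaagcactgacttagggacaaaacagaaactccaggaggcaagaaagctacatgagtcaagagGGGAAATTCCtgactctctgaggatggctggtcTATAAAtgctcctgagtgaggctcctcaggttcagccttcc
Cxcl9: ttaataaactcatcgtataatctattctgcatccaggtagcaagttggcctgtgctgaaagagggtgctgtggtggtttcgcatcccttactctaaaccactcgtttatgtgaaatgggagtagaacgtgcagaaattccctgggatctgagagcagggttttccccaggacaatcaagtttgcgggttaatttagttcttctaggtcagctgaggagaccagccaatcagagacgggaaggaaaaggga
Cxcl1: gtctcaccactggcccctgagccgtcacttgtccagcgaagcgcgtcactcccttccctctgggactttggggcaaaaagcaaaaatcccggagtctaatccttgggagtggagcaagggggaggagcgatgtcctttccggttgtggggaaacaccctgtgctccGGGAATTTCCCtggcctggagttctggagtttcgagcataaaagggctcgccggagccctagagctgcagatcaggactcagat

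Of the 9 genes, 7 had a promoter in the RefSeq table, and 4 motifs were searched on both strands. The core of the interferon-stimulated response element, written as GAAA, any 2 bases and GAAA, occurred in 1 of the 7, Cxcl10, and in 3.41% of all 33469 promoters of the same length. An NF-kB site, written as GGGA, any 2 bases and TTCC, occurred in 3 of the 7 and in 1.08% of all promoters. Cxcl10 held it at bases -187 to -178 and again at -128 to -118, where matches on the 2 strands overlap, Cxcl1 at -84 to -74, where they overlap likewise, and Cxcl11 at -74 to -65. The interferon gamma activated site, written as TTC, any 3 bases and GAA, was found in Cxcl11 at -250 to -242 and in 7.67% of all promoters. The TATA box, TATAAA, was found in Cxcl10, Cxcl11 and Cx3cl1 and in 12.9% of all promoters. A match describes letters in this window and is not a bound site, and the Cxcl9 window held none of the 4 motifs as written.

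All 10 probes were well above background in Cy5 on 22 of 22 arrays, and none was saturated. In Cy3 the Ccl2 probe was well above background on 20 arrays and the other 9 probes on 22. The spread between rats differed widely from gene to gene. The highest Cy5 signal over the 22 arrays was 715 times the lowest for Cxcl1, from 53.1 to 37926. It was 148 times the lowest for Ccl2 and 69.8 times for Cxcl10. At the other end, this fold was 3.33 for Cxcl11 and 2.90 for Cxcl12. Signals are not compared between genes, since each probe binds in its own way.

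The Cy3 channel, labelled as a common reference, was not the same on every array for several of these genes, and this bears on each log2 ratio below. The Cxcl10 reference signal was 458 to 533 on 4 arrays and 92.0 to 299 on the other 18. These 4 arrays, CD 3 replicate 3, BD 3 replicate 2, CD 14 replicate 6 and BD 14 replicate 2, came 1 from each group and lay on 4 slides. The Cxcl16 reference signal was 524 to 691 on them against 106 to 369 elsewhere, and that of Cx3cl1 was 285 to 392 against 92.6 to 251. For Cxcl9 the ranges met, with 646 to 983 on the 4 arrays and 123 to 937 on the rest. The signals just given were not centred. Over 18735 probes with a value on every array, each array being centred, 1.78% (334 probes) were higher in Cy3 on all 4 than on all 18 arrays, and 28 probes were lower. Of the chemokine probes, only that of Cxcl10 was separated in this way after centring, and its own signal had defined the split. Those of Cxcl16 and Cx3cl1 were not. The SD of the log2 reference signal of Cxcl9 over the arrays was 0.867, above the 0.795 of its rat signal, and for Cxcl16 both were 0.741. For Cxcl10 the reference SD was 0.782 against 1.39 for the rats, and for Cxcl1 it was 1.16 against 2.37. Over the 18735 probes the median SD was 0.499 in the reference and 0.584 in the rats. Variation of the reference was thus not particular to these genes. For the genes with the larger differences, values are therefore also given from the Cy5 channel alone, after quantile normalization, and without the 4 arrays. The quantile step set dim probes lower on arrays with many spots well above background. On CD 14 replicate 1, with 90.6% of Cy5 spots well above background, a Ccl2 signal of 21.3 became a log2 value of 2.46. On BD 14 replicate 3, with 69.1%, 31.2 became 5.57. For Cxcl10, 195 on CD 14 replicate 1 became 6.71, and 188 on CD 14 replicate 4 became 7.78. Differences from Cy5 alone carry this limit. The split into 4 and 18 arrays was chosen after the values were seen.

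**Figure D1:**
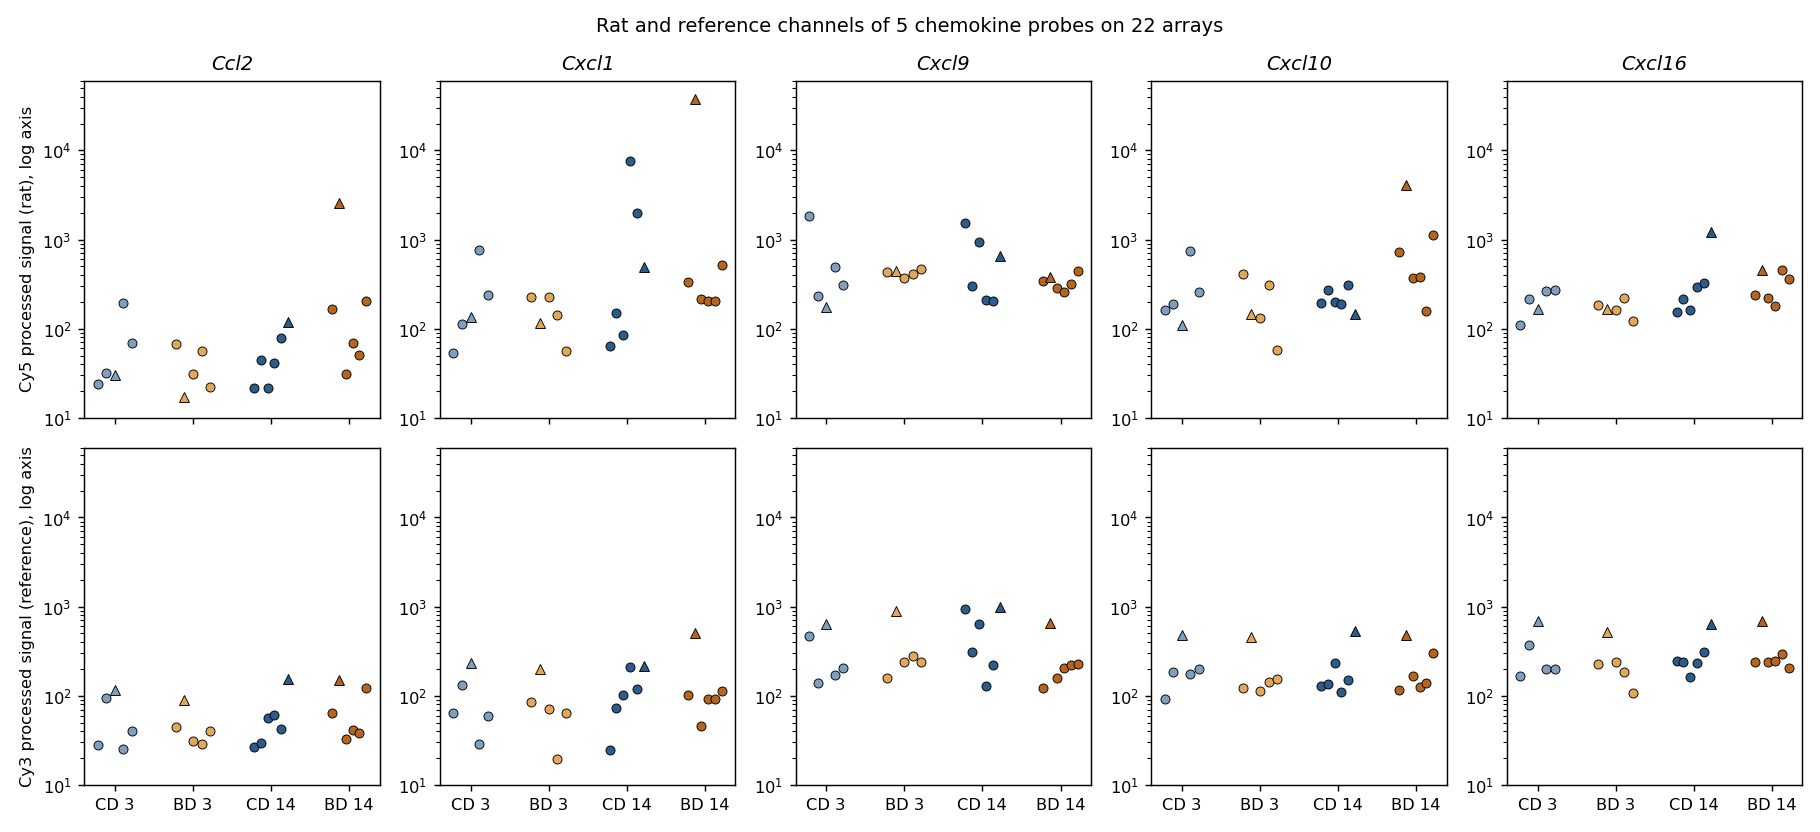
Processed signal on a log axis for 5 chemokine probes, with the rat channel (Cy5) in the upper row and the reference channel (Cy3) in the lower row, by group. Each point is 1 array, and triangles mark the 4 arrays whose Cxcl10 reference signal was 458 to 533. In the Cxcl10 and Cxcl16 panels of the lower row the triangles lie above all circles, and in the upper row the highest points of Ccl2, Cxcl1 and Cxcl10 belong to BD 14 replicate 2.

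None of the 9 chemokines passed an adjusted p of 0.05 in limma in any comparison. For diet at 3 months, BD 3 against CD 3, that was 0 of 9 against 0% of all probes tested, and the lowest adjusted p was 0.870. For diet at 14 months, BD 14 against CD 14, it was 0 of 9 against 0%, with a lowest adjusted p of 0.952. For time on the control diet, CD 14 against CD 3, it was 0 of 9 against 0%, with 0.416. For time on the BASE-diet, BD 14 against BD 3, it was 0 of 9 against 0%, with 0.603. The interaction of diet and time gave 0 of 9 against 0%, and the F test among the 4 groups 0 of 9 against 0.0257% of all probes, with 0.529 as its lowest adjusted p, for Cxcl10.

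By the unadjusted p in limma, 0 of 9 chemokines lay under 0.05 for diet at 3 months, where 7.11% of all probes did. At 14 months it was 1 of 9, Cxcl10, beside 4.59% of all probes. For time on the control diet it was 1 of 9, Ccl5, beside 10.1%, and for time on the BASE-diet 1 of 9, Cxcl10 again, beside 7.43%. The interaction, with 5 of 9 above 0 beside 52.4% of all probes, had 0 of 9 beside 4.79% and the F test 0 of 9 beside 10.5%. In no comparison did a chemokine have groups without overlap, while 0.757%, 0.767%, 0.515% and 2.26% of all probes did, in the order just given.

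The direction of the differences, none of which passed the adjusted threshold, depended on the processing. The log2 difference was above 0 for 4 of 9 chemokines in BD 3 against CD 3 (53.6% of all probes), with a median of -0.06 against 0.03 over all probes. It was above 0 for 6 of 9 in BD 14 against CD 14 (56.3%), with a median of 0.12 against 0.05. It was above 0 for 6 of 9 in CD 14 against CD 3 (53.4%), with a median of 0.24 against 0.03. It was above 0 for 9 of 9 in BD 14 against BD 3 (58.7%), with a median of 0.22 against 0.07. From the Cy5 channel alone the 4 counts were 2, 7, 5 and 8 of 9 in this order. Without the 4 arrays they were 4, 6, 5 and 6, and under the slide block 4, 4, 1 and 4. Of the 36 differences in these 4 comparisons, 7 reached 1 on the log2 scale, all in Ccl2, Ccl5, Cxcl1 and Cxcl10, and the other 29 lay between -0.54 and 0.69.

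**Figure D2:**
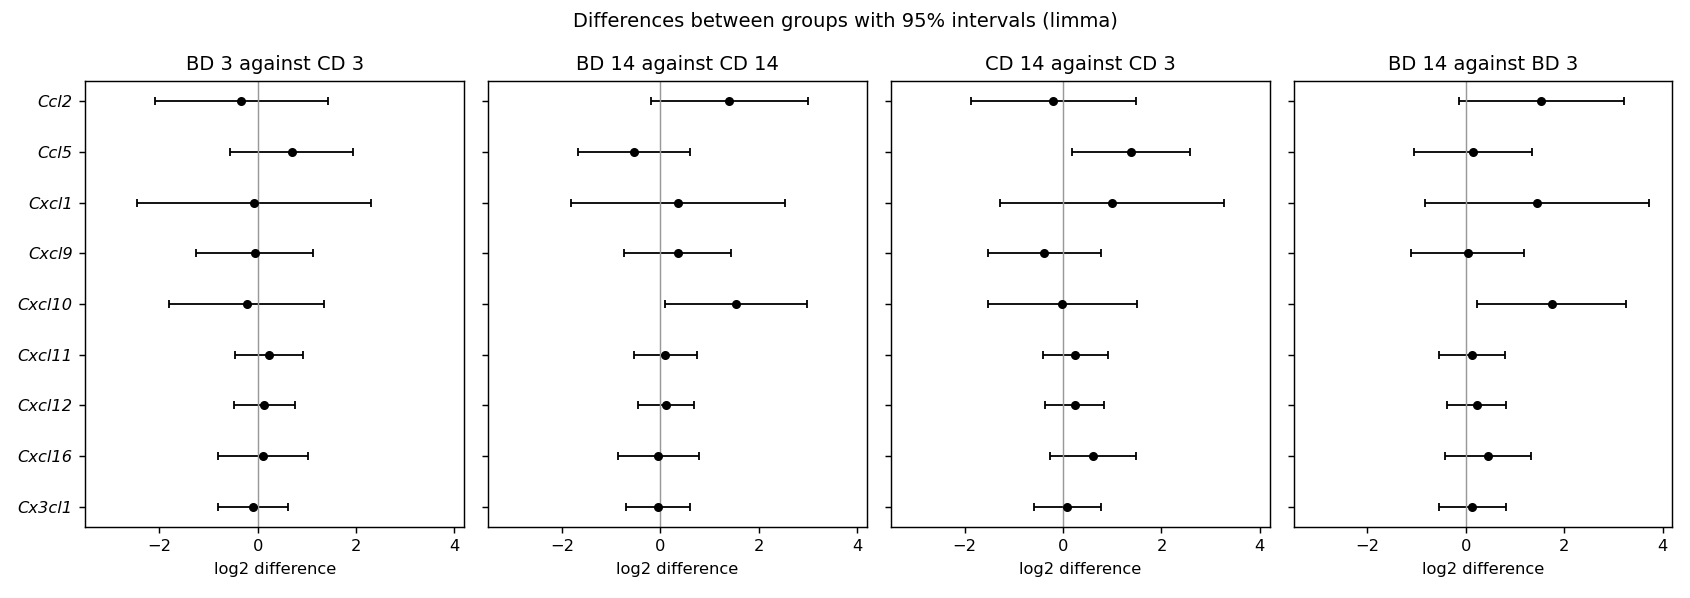
Log2 differences between groups for the 9 chemokines with 95% intervals from limma, 1 panel for each of the 4 comparisons. Cxcl10 in both BD 14 panels and Ccl5 in the panel of CD 14 against CD 3 have intervals that leave out 0, and no adjusted p was under 0.05.

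Cxcl10, Cxcl9 and Cxcl11 are the interferon-inducible ligands of Cxcr3, a receptor carried by activated T cells and NK cells. Their probes lie side by side on chromosome 14 of build rn4, at chr14:17267994-17268053, chr14:17288831-17288890 and chr14:17252192-17252251. The gaps between neighbouring probes are 15742 and 20777 bases.

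The log2 ratios of Cxcl10 were 0.83, 0.01, -2.11, 2.06 and 0.38 in CD 3. They were 1.78, -1.66, 0.22, 1.11 and -1.39 in BD 3. In CD 14 the lowest, median and highest were -1.88, 0.68 and 1.06, and in BD 14 they were 0.18, 1.73 and 3.10. So BD 14 had the highest rats and no rat below the reference, and it overlapped every other group. The means were 0.23 ± 1.52 (SD, n = 5), 0.01 ± 1.51 (n = 5), 0.21 ± 1.13 (n = 6) and 1.76 ± 1.05 (n = 6) in CD 3, BD 3, CD 14 and BD 14. The median Cy5 signal was 188, 145, 198 and 552 in the same order, and the highest, 4064, was that of BD 14 replicate 2.

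Cxcl10 was 1.54 higher on the log2 scale in BD 14 than in CD 14 (SE 0.694, 95% interval 0.10 to 2.99), which is 2.91-fold, with an unadjusted p of 0.0372 and an adjusted p of 0.952 in limma. Against BD 3 it was 1.75 higher (SE 0.728, interval 0.23 to 3.26), or 3.35-fold, with an unadjusted p of 0.0257 and an adjusted p of 0.603. BD 3 against CD 3 gave -0.22 (SE 0.761) and CD 14 against CD 3 -0.02 (SE 0.728), and under a slide block these were -1.48 and -1.32. The interaction was 1.76 (SE 1.03, interval -0.37 to 3.90), with an adjusted p of 0.999 in limma, and from the Cy5 channel alone 2.48 (SE 0.971, unadjusted p 0.0184, adjusted p 0.440). From the Cy5 channel alone the difference at 14 months was 2.04 (SE 0.654), with an unadjusted p of 0.00517 and an adjusted p of 0.786 in limma, and that from BD 3 to BD 14 was 2.06 (SE 0.686, adjusted p 0.227). Without the 4 arrays the 2 differences were 0.86 and 1.06, without BD 14 replicate 2 they were 1.28 and 1.48, and in each case no unadjusted p stayed under 0.05. With the slide as a block they were 0.85 and 1.00, with unadjusted p of 0.409 and 0.470 in limma. On the slide of the BD 14 arrays the 2 CD 14 rats had 0.76 and 1.06, within the range of the 6 BD 14 rats. No slide held both BD 14 and BD 3 arrays. The blocked difference between them thus rests on links through other groups, such as CD 14, which shared a slide with each.

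Cxcl9 had log2 ratios of 1.95, 0.76, -1.90, 1.52 and 0.58 in CD 3 and of 1.48, -1.03, 0.62, 0.56 and 0.98 in BD 3. The lowest, median and highest were -0.58, 0.26 and 0.71 in CD 14 and -0.80, 0.69 and 1.48 in BD 14. The lowest value of each group was that of the array with the high Cxcl10 reference signal, and the groups overlapped throughout. The 4 differences were between -0.38 and 0.35, with SEs from 0.523 to 0.573. With the slide as a block, BD 3 against CD 3 was -1.41 and CD 14 against CD 3 was -1.58. Without the 4 arrays, CD 14 was lower than CD 3 by a log2 difference of -0.84 (SE 0.316), at an unadjusted p of 0.0161 and an adjusted p of 0.523 in limma. From the Cy5 channel alone that difference was -0.07 (SE 0.557). There both BD 14 differences turned below 0, to -0.31 from CD 14 and -0.36 from BD 3. The 3 brightest Cy5 signals of Cxcl9 were 1825 in CD 3 replicate 1, 1535 in CD 14 replicate 1 and 939 in CD 14 replicate 3. Those arrays were 3 of the 4 with the most Cy5 spots well above background (88.8 to 93.6%), and their part in these signals was not tested.

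Cxcl11 varied least of the 3. Its log2 ratios were 0.80, 0.27, -0.45, -0.34 and 0.38 in CD 3 and 0.71, -0.12, 0.29, 0.67 and 0.26 in BD 3. They ran from -0.26 to 1.02 with a median of 0.49 in CD 14, and from -0.52 to 1.51 with a median of 0.42 in BD 14. All 4 groups overlapped, and the differences were between 0.10 and 0.25 with SEs from 0.305 to 0.334. The intervals reached 0.92 at most on the log2 scale, but with the slide as a block they reached from -1.68 to 1.94. Both BD 14 differences were below 0 without the 4 arrays, at -0.23 and -0.20.

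**Figure D3:**
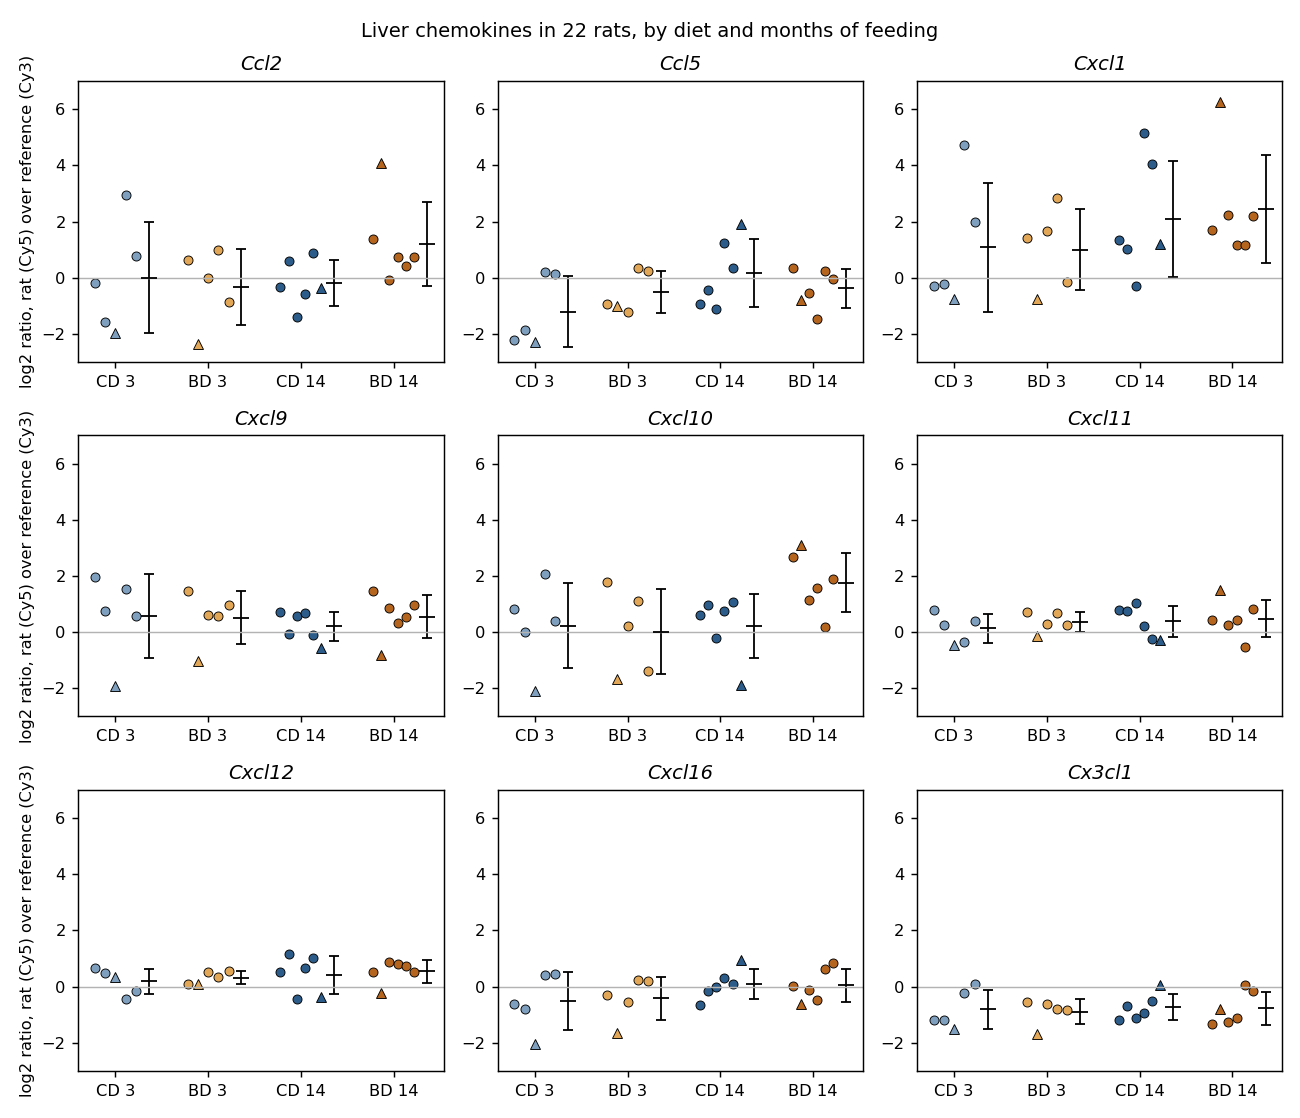
Log2 ratio of rat to reference for each of the 9 chemokines on the same scale, by group, with 1 point per rat and the mean ± SD beside the points. Triangles mark the 4 arrays with the high Cxcl10 reference signal. Ccl2, Cxcl1 and Cxcl10 span several log2 units within a group, while Cxcl11 lies between -0.52 and 1.51 and Cxcl12 between -0.45 and 1.18, and the groups overlap in every panel.

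Cxcl1 draws neutrophils through the receptor Cxcr2, and its probe is at chr14:18690468-18690527 on rn4. The log2 ratios were -0.28, -0.23, -0.77, 4.72 and 1.98 in CD 3, and 1.40, -0.75, 1.66, 2.85 and -0.16 in BD 3. In CD 14 they ran from -0.28 to 5.16 with a median of 1.28, and in BD 14 from 1.15 to 6.24 with a median of 1.95. A few rats stood far above the rest: BD 14 replicate 2 (6.24), CD 14 replicates 4 and 5 (5.16 and 4.05) and CD 3 replicate 4 (4.72). Their Cy5 signals were 37926, 7572, 1988 and 766, while the median over all 22 arrays was 211. Of these 4 rats, 3 were on the control diet, and the only one on the BASE-diet, BD 14 replicate 2, is among the 4 arrays of high reference signal.

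The group means of Cxcl1 were 1.08 ± 2.29 (SD, n = 5), 1.00 ± 1.45 (n = 5), 2.08 ± 2.07 (n = 6) and 2.45 ± 1.92 (n = 6) in CD 3, BD 3, CD 14 and BD 14. CD 14 against CD 3 gave a log2 difference of 1.00 (SE 1.10, interval -1.27 to 3.28), and BD 14 against BD 3 gave 1.45 (SE 1.10, interval -0.83 to 3.72), with adjusted p of 0.817 and 0.778 in limma. Diet gave -0.08 (SE 1.14) at 3 months and 0.36 (SE 1.04) at 14 months, and the latter was -0.40 without BD 14 replicate 2 and -2.16 (SE 1.35) under the slide block. With the slide as a block both differences for time turned below 0, to -0.47 and -3.01, and the 1 rat each of CD 14 and CD 3 on a shared slide differed by -0.78. On the slide shared by BD 14 and CD 14 the 2 CD 14 rats were the high ones just named. Leaving out single rats moved the difference for time between 0.39 and 1.91 on the control diet and between 0.69 and 1.91 on the BASE-diet. Without the 4 arrays BD 14 against BD 3 was 0.25 (SE 1.07) and BD 14 against CD 14 was -0.58. From the Cy5 channel alone these were 2.35 (SE 1.43) and 1.24 (SE 1.36).

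Ccl2 draws monocytes through Ccr2 and is a product of Kupffer cells and stellate cells in injured liver. Its probe is at chr10:70257919-70257978 on rn4. In Cy3 this probe was well above background on 20 of 22 arrays, so not every ratio here has a reference well above background. The log2 ratios were -0.21, -1.59, -1.95, 2.95 and 0.79 in CD 3 and 0.61, -2.37, -0.01, 0.97 and -0.86 in BD 3. In CD 14 they ran from -1.38 to 0.87 with a median of -0.35, and in BD 14 from -0.08 to 4.08 with a median of 0.73. The highest rat was again BD 14 replicate 2, with a Cy5 signal of 2549, and the next highest, 205, was that of BD 14 replicate 6. The groups overlapped.

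Ccl2 was 1.40 higher on the log2 scale in BD 14 than in CD 14 (SE 0.769, interval -0.20 to 3.00) and 1.54 higher than in BD 3 (SE 0.806, interval -0.14 to 3.21), with adjusted p of 0.952 and 0.702 in limma. Without BD 14 replicate 2 these differences were 0.83 and 0.96, and without the 4 arrays they were 0.79 and 0.45. With the slide as a block they were 1.05 and 0.63, and CD 14 against CD 3 was -1.12. From the Cy5 channel alone they were 2.58 (SE 1.00, unadjusted p 0.0175, adjusted p 0.845) and 2.65 (SE 1.05, unadjusted p 0.0198, adjusted p 0.320) in limma. Values of Ccl2 from Cy5 alone carry the limit of the quantile step given above. BD 3 against CD 3 gave -0.33 (SE 0.842) and CD 14 against CD 3 gave -0.20 (SE 0.806). The interaction was 1.73 (SE 1.14), with an adjusted p of 0.999 in limma, and from the Cy5 channel alone 3.43 (SE 1.49, unadjusted p 0.0315, adjusted p 0.490).

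Ccl5 is made mainly by T cells and NK cells and draws T cells and monocytes. Its probe is at chr10:71605854-71605913 on rn4. The log2 ratios were -2.24, -1.86, -2.29, 0.22 and 0.13 in CD 3 and -0.95, -0.99, -1.24, 0.35 and 0.24 in BD 3. In CD 14 they ran from -1.12 to 1.91 with a median of -0.05, and in BD 14 from -1.47 to 0.36 with a median of -0.29. Within CD 3, 3 rats lay below every rat of the other groups and the other 2 lay among them. The highest Cy5 signal, 7275, was that of CD 14 replicate 6, and the lowest, 236, that of CD 3 replicate 1.

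Ccl5 was 1.38 higher on the log2 scale in CD 14 than in CD 3 (SE 0.576, interval 0.18 to 2.57), which is 2.60-fold, with an unadjusted p of 0.0259 and an adjusted p of 0.416 in limma. The Cy5 channel alone gave 1.29 (SE 0.601, adjusted p 0.491), the slide as a block 1.24 (unadjusted p 0.115), and the 1 rat of each group on the slide they share a difference of 1.78. Without the 4 arrays it was 0.76 (SE 0.597). BD 14 against BD 3 gave 0.14 (SE 0.576), BD 3 against CD 3 0.69 (SE 0.601) and BD 14 against CD 14 -0.54 (SE 0.549). The interaction was -1.23 (SE 0.814, interval -2.93 to 0.46, adjusted p 0.999 in limma), so the differences for time on the 2 diets were not shown to differ. With the slide as a block the interaction was -2.84 (SE 0.933, unadjusted p 0.00741, adjusted p 0.327 in limma), and BD 14 against BD 3 turned to -1.60. Under that block BD 3 against CD 3 was 1.67 (unadjusted p 0.0323, adjusted p 0.407 in limma) and BD 14 against CD 14 was -1.16.

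Cxcl12 is made in resting liver by endothelial, stellate and bile duct cells and binds Cxcr4 and Ackr3, which retain and guide lymphocytes and progenitor cells. The 2 probes are at chr4:153516205-153516264 and chr4:153510285-153510344 on rn4. The variant 3 probe had log2 ratios of 0.66, 0.48, 0.34, -0.43 and -0.14 in CD 3 and of 0.08, 0.09, 0.52, 0.35 and 0.56 in BD 3. In CD 14 they ran from -0.45 to 1.18 with a median of 0.58, and in BD 14 from -0.23 to 0.87 with a median of 0.64. Groups overlapped fully, and the lowest rat of BD 14 was replicate 2. The differences were between 0.12 and 0.24, with SEs from 0.275 to 0.301. The intervals reached from -0.49 to 0.84, and with the slide as a block they reached down to -1.36, with all 4 differences below 0.

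The variant 1 probe of Cxcl12 gave differences from -0.39 to -0.01, with SEs from 0.422 to 0.462. Its differences were 0.02 to 0.08 without the 4 arrays, and without BD 14 replicate 2 those of BD 14 were 0.08 and 0.28. Its correlation with the variant 3 probe over the 22 arrays was 0.57. In BD 14 replicate 2 it had a log2 ratio of -2.23 and a Cy5 signal of 1006, while the lowest of the other 21 arrays was 2093. Under the slide block the differences of BD 14 from CD 14 and from BD 3 were -0.93 and -1.20. The sign of this probe thus depended on the arrays and the fit used, and no difference of either probe passed a test.

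Cxcl16 and Cx3cl1 are made as membrane proteins whose outer parts are released by the proteases Adam10 and Adam17. Cxcl16 binds Cxcr6 on NKT cells and T cells, and Cx3cl1 binds Cx3cr1 on monocytes and NK cells. Their probes are at chr10:57296159-57296218 and chr19:10667029-10667088 on rn4. The log2 ratios of Cxcl16 were -0.61, -0.79, -2.05, 0.40 and 0.45 in CD 3 and -0.30, -1.65, -0.54, 0.22 and 0.21 in BD 3. They ran from -0.65 to 0.93 with a median of 0.04 in CD 14 and from -0.62 to 0.83 with a median of -0.05 in BD 14. The lowest rats of CD 3 and BD 3, at -2.05 and -1.65, and of BD 14, at -0.62, were among the 4 arrays of high reference signal, while the one of these arrays in CD 14 was the highest of its group, at 0.93. The groups overlapped. The difference for time was 0.60 (SE 0.420) on the control diet and 0.46 (SE 0.420) on the BASE-diet, and that for diet was 0.11 (SE 0.439) and -0.04 (SE 0.401). Without the 4 arrays the differences for time were 0.05 and 0.28, from the Cy5 channel alone 0.31 and 0.92, and with the slide as a block -0.04 and -0.23.

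Cx3cl1 lay below the reference in 19 of 22 rats. Its log2 ratios were -1.19, -1.20, -1.52, -0.24 and 0.10 in CD 3 and -0.55, -1.67, -0.62, -0.80 and -0.85 in BD 3. They ran from -1.18 to 0.07 with a median of -0.81 in CD 14, and from -1.34 to 0.05 with a median of -0.96 in BD 14. The group means were -0.81 ± 0.701 (SD, n = 5), -0.90 ± 0.450 (n = 5), -0.72 ± 0.465 (n = 6) and -0.77 ± 0.586 (n = 6), so the spread within groups was larger than any difference between them. The 4 differences were between -0.09 and 0.13, with SEs from 0.312 to 0.342. They were between -0.25 and 0.12 without the 4 arrays. CD 14 replicate 6 had the highest Cy5 signal of the 22 arrays for Ccl5 (7275), Cxcl16 (1231) and Cx3cl1 (412).

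Across the 22 rats several of the chemokines varied together. These correlations describe rats that share slides, a reference and the common scale of an array, and are given without a p. In the log2 ratios, Ccl2 and Cxcl10 had a Pearson r of 0.82, Ccl2 and Cxcl1 0.78, and Cxcl1 and Cxcl10 0.66. The same pairs had 0.87, 0.84 and 0.71 in the Cy5 channel alone, and 0.73, 0.59 and 0.47 over the 18 arrays left without the 4. They also varied together in the reference channel alone, at 0.81, 0.86 and 0.63, where the RNA is labelled as 1 common sample. Without BD 14 replicate 2 the 3 values were 0.79, 0.69 and 0.58. So the joint variation of Ccl2, Cxcl10 and Cxcl1 was present without the rat that was highest in all of them.

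Ccl5, Cxcl16 and Cx3cl1 also varied together. Ccl5 and Cxcl16 had an r of 0.79, Cxcl16 and Cx3cl1 0.78, and Ccl5 and Cx3cl1 0.59. In the Cy5 channel alone they had 0.82, 0.89 and 0.68, and without the 4 arrays 0.80, 0.69 and 0.42. In the reference channel they had 0.81, 0.80 and 0.62. Within groups, after the group means were taken off, the 3 values were 0.78, 0.81 and 0.64, so the correlations were as high among rats of 1 group. In the Cy5 channel alone the 2 sets were not separate, as Ccl2 had an r of 0.76 with Cxcl16 and of 0.75 with Cx3cl1. Cxcl1 had 0.72 with Cxcl16 there. In the log2 ratios these 3 pairs had 0.41, 0.45 and 0.40. After the quantile step Ccl2, Cxcl16 and Cx3cl1 were low together on CD 3 replicate 1. They had 2.72, 5.71 and 4.18, against CD 3 means of 5.58, 7.49 and 6.56. The part of arrays with many spots well above background in the Cy5 correlations was not tested. Cxcl1 and Ccl5 had 0.49 in the log2 ratios and 0.70 without the 4 arrays.

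The Cxcr3 ligands varied together less evenly. Cxcl10 had an r of 0.50 with Cxcl9 and of 0.52 with Cxcl11 in the log2 ratios. In the Cy5 channel alone these were -0.27 and 0.32, and without the 4 arrays 0.29 and 0.03, so the sign for Cxcl9 turned when the reference was left out. Cxcl9 with Cxcl11 had 0.25 in the log2 ratios and 0.50 in Cy5 alone. Cxcl12 had an r between -0.21 and 0.11 with each of the other 8 genes in the log2 ratios.

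**Figure D4:**
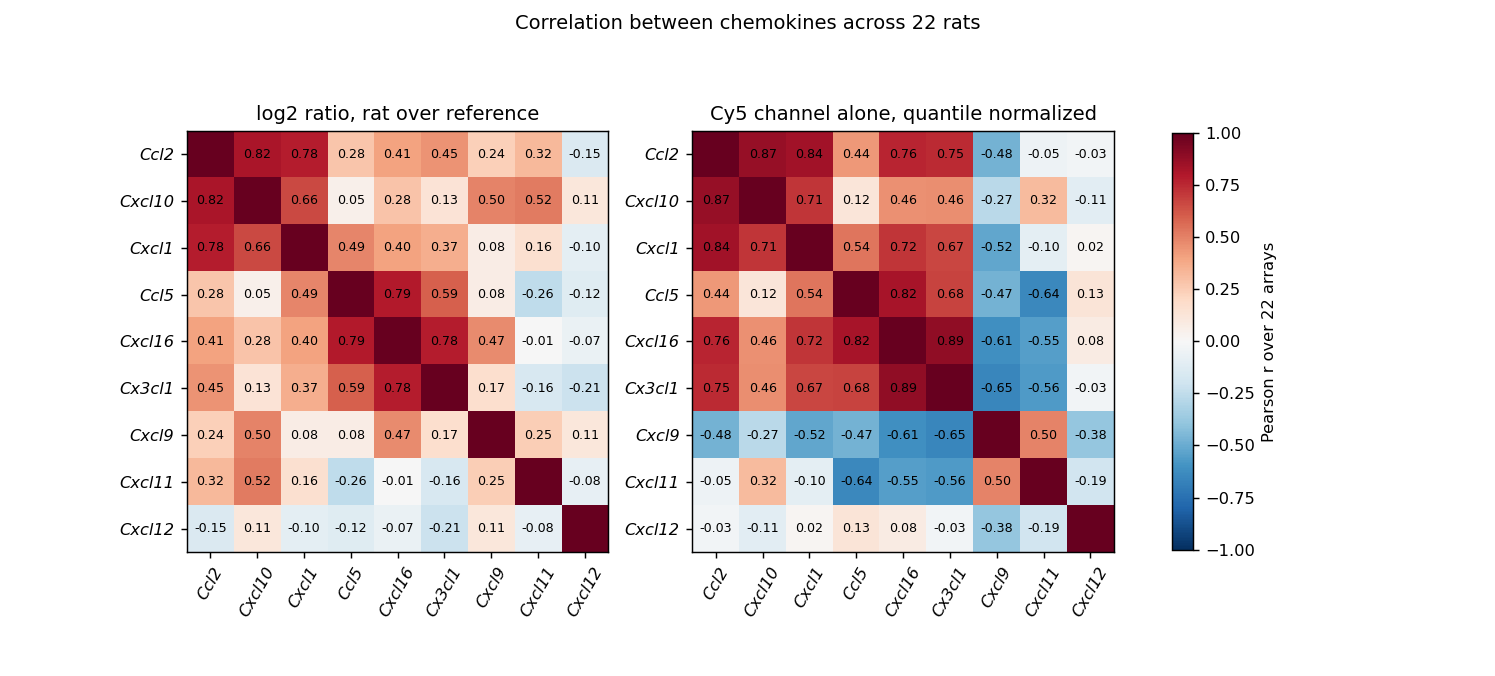
Pearson r between chemokines over 22 arrays, from the log2 ratios on the left and from the Cy5 channel alone after quantile normalization on the right. Ccl2, Cxcl10 and Cxcl1 have high values with each other in both, as do Ccl5, Cxcl16 and Cx3cl1. On the right Ccl2 and Cxcl1 are also high with Cxcl16 and Cx3cl1, and the row of Cxcl9 is above 0 on the left and mostly below 0 on the right.

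The genes most like each chemokine were sought among 16489 genes by Pearson r of the log2 ratios over the 22 arrays. The 3 nearest to Ccl2 were Gbp5 (0.83), a guanylate-binding protein induced by interferon, Tnf (0.83) and Cxcl10 (0.82). Those nearest to Ccl5 were Gzma (0.92), a protease of cytotoxic lymphocytes, Gimap7 (0.92) and Fcgr2b (0.91). For Cxcl1 they were Pou2af1 (0.87), Csf1 (0.87), the macrophage growth factor, and Map3k8 (0.87), a kinase of inflammatory signalling. For Cxcl10 they were Ccl2 (0.82), a probe without a gene name (0.81) and Gbp5 (0.81). For Cxcl16 they were Lcp1 (0.93), the leukocyte plastin, Snx20 (0.92) and Lsp1 (0.92). For Cx3cl1 they were Igfbp7 (0.84), Ccl19 (0.82) and Ctse (0.82). The nearest to Cxcl9 was Crip1 (0.86), to Cxcl11 Atp8b1 (0.80), a lipid flippase, and to Cxcl12 Sorl1 (0.82). The highest of so many correlations is high by choice, and these are given as a description.

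Marker genes of several cell types moved with some chemokines. Ccl5 had an r of 0.94 with the mean log2 ratio of 9 T and NK cell markers, 0.92 in Cy5 alone and 0.96 without the 4 arrays. With 9 markers of Kupffer cells and macrophages it had 0.76, 0.86 and 0.77 in the same order, and with 6 endothelial markers 0.87, 0.84 and 0.80. Cxcl16 had 0.81, 0.94 and 0.74 with the T and NK cell markers and 0.81, 0.70 and 0.66 with the Kupffer cell and macrophage markers, and 0.79, 0.57 and 0.71 with the endothelial markers. Cxcl1 had 0.78, 0.71 and 0.67 with 4 neutrophil markers, and Ccl2 had 0.69, 0.56 and 0.49 with them. With the T and NK cell markers Cxcl1 had 0.66, 0.68 and 0.76, and Ccl2 had 0.45, 0.65 and 0.41. Gzma is both one of the T and NK cell markers and the gene nearest to Ccl5. Fcgr2b, listed as an endothelial marker, is also among the 3 genes nearest to Ccl5.

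No marker passed the adjusted threshold in any comparison. In CD 14 against CD 3, where Ccl5 was 1.38 higher, 7 of 9 Kupffer cell and macrophage markers lay at an unadjusted p under 0.05 in limma, all higher in CD 14, beside 10.1% of all probes, and 0 of 9 at an adjusted one (lowest adjusted p 0.250). Their median difference was 1.19 against 0.03 over all probes. Their mean log2 ratio per array ran from -2.86 to -0.60 in CD 3 and from -1.13 to -0.03 in CD 14, and their summed Cy5 signal from 8440 to 23043 and from 15188 to 77976. Of 12 T and NK cell markers, 9 were tested, 2 (Nkg7 and Gzma) were at an unadjusted p under 0.05 and 0 at an adjusted one (lowest 0.314), and the median difference was 0.43. Their summed Cy5 signal ran from 632 to 1909 in CD 3 and from 1217 to 4113 in CD 14. Of the defining T cell markers, Cd3d, Cd3g and Cd8b were well above background on 22 arrays, Cd4 and Cd8a on 21, Cd3e on 9 and Cd2 on 1. Their part in the difference of Ccl5 was not tested.

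At 14 months the means of Cxcl10 and Ccl2 were higher on the BASE-diet, and neither difference passed the adjusted threshold. No Kupffer cell, T and NK cell or neutrophil marker lay at an unadjusted p under 0.05 there in limma, beside 4.59% of all probes. With so few markers this count is near that share. The median differences of the markers were -0.18 over 9, -0.10 over 9 and -0.02 over 4, against 0.05 over all probes. The rat BD 14 replicate 2, highest in Cxcl1, Ccl2 and Cxcl10, had a summed Cy5 signal of 3786 over the 4 neutrophil markers, while the other 21 arrays had 181 to 995. S100a8, S100a9, Mpo and Camp were the 4 tested. Elane and Mmp8, which also define neutrophils, were each well above background on 1 array. CD 14 replicate 6, highest in Ccl5, Cxcl16 and Cx3cl1, ranked first of 22 in the summed Cy5 signal of the T and NK cell markers (4113) and of the Kupffer cell and macrophage markers (77976). It also ranked first for the hepatocyte, stellate cell and bile duct markers, so it was bright in many lists, and its mean log2 ratio was 0.58 over the T and NK cell markers and -0.56 over the Kupffer cell and macrophage markers.

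**Figure D5:**
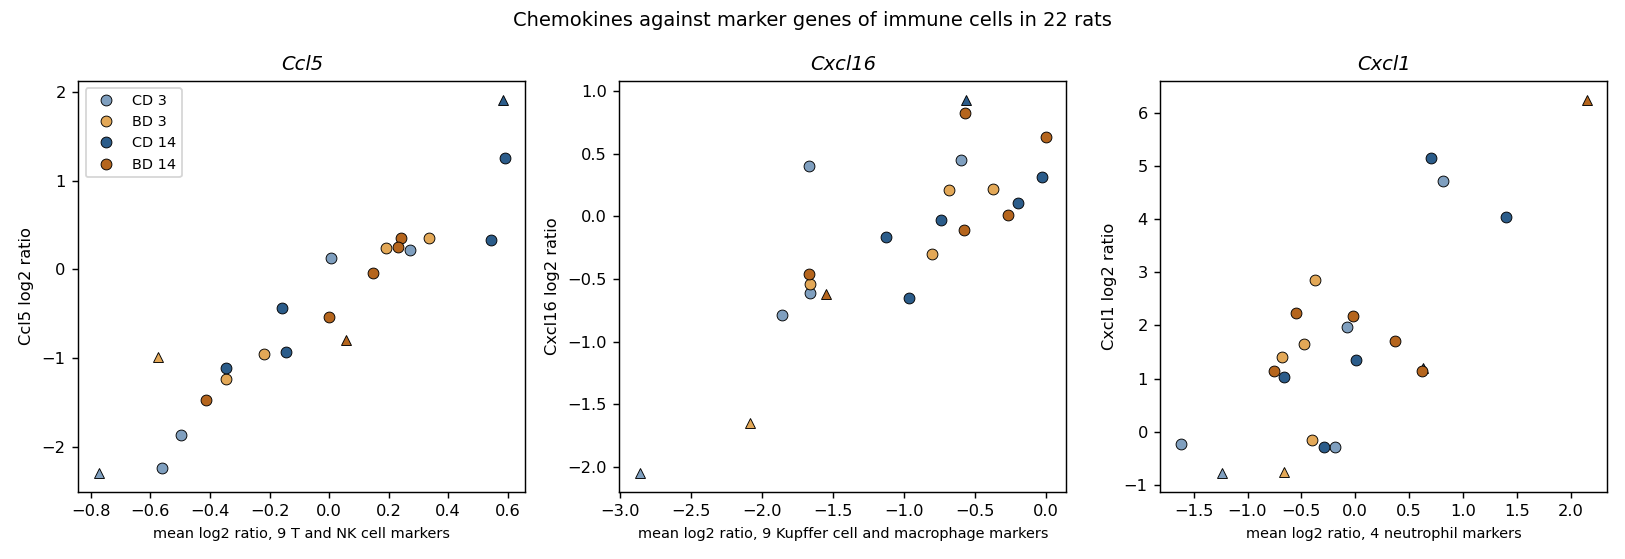
Log2 ratio of Ccl5, Cxcl16 and Cxcl1 in each of 22 rats against the mean log2 ratio of 9 T and NK cell markers, 9 Kupffer cell and macrophage markers and 4 neutrophil markers. Colours give the group and triangles the 4 arrays of high reference signal. Points rise together in each panel, with r of 0.94, 0.81 and 0.78, and rats of all 4 groups lie along the same band.

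Of the other chemokine ligands, 25 were on the array and 15 were tested, and 0 passed the adjusted threshold in any comparison. At an unadjusted p under 0.05, limma had 1 of 15, Ccl9, higher in CD 14 than in CD 3 (0.55, SE 0.239, adjusted p 0.435), beside 10.1% of all probes. The 3 with the smallest p of the F test were Ccl9, Ccl6 and Ccl22, with adjusted p of 0.606, 0.701 and 0.706. Ccl6, a ligand of the myeloid lineage in rodents, had group means of -1.57, -1.16, -0.48 and -0.84 in CD 3, BD 3, CD 14 and BD 14. Ccl22, which attracts Ccr4 bearing T cells, had 0.31, 0.21, -0.10 and 0.43. Cxcl2 and Cxcl3, neutrophil attractants like Cxcl1, were well above background on 8 and 5 arrays and were not tested.

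Among the receptors, 10 of the 21 on the array were tested and 0 passed the adjusted threshold. At an unadjusted p under 0.05 limma had 0, 2, 0 and 3 of 10, beside 7.11%, 4.59%, 10.1% and 7.43% of all probes. The order is BD 3 against CD 3, BD 14 against CD 14, CD 14 against CD 3 and BD 14 against BD 3. Ackr3, the scavenging receptor of Cxcl12 and Cxcl11, had group means of -0.10, -0.98, 0.00 and 0.93 (adjusted p of the F test 0.258). Ccr7 had 0.33, -0.00, 0.08 and 0.85 (0.332), and Cxcr4, the signalling receptor of Cxcl12, had 0.04, -0.66, 0.33 and 0.68 (0.408). All 3 had their highest mean in BD 14. They were well above background on 15, 16 and 20 of 22 arrays, and the filter can pass a probe through the 1 group where it is high, so these values are given as a description. Cxcr3, the receptor of Cxcl9, Cxcl10 and Cxcl11, had 0.28, 0.16, 0.46 and 0.79 (0.782). The receptors of Ccl2, Cxcl1 and Cxcl16, which are Ccr2, Cxcr2 and Cxcr6, were well above background on 7, 6 and 5 arrays and were not tested.

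Of 7 genes that cleave, trim or hold chemokines, 6 were tested and 0 passed the adjusted threshold. In the same order of comparisons as for the receptors, 1, 1, 1 and 2 of 6 lay at an unadjusted p under 0.05 in limma. The shares of all probes are those given there. Adam17 had group means of -0.43, -0.59, -0.12 and 0.55 (adjusted p of the F test 0.265). Adam10 had -1.07, -0.18, 0.24 and 0.02 (0.361), and the heparan sulphate carrier Sdc1 had -0.06, -0.21, 0.21 and 0.44 (0.379). Of the inducers and signal genes, 22 of 25 were tested and 0 passed. At an unadjusted p under 0.05 limma had 0, 1, 3 and 4 of 22 in that order, beside the same shares. Irf7, an interferon regulatory factor, had -0.75, -0.45, 0.96 and 1.19, with the lowest adjusted p of the F test of these lists, 0.0861. Nfkb1 had -0.47, -0.04, -0.13 and 0.52 (0.399), and Tlr4, the receptor of endotoxin, had -0.78, -0.41, 0.67 and 0.52 (0.455). The gene of interferon gamma was well above background on none of the 22 arrays.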

How the data were processed

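Agilent two-colour rat arrays of 62976 spots were used for the liver RNA of 22 rats. The authors deposited 1 scanner output per rat, made with Agilent Feature Extraction (version 10.10.1.1 per the file headers, 10.7.3.1 per the labels). In it each spot's processed intensity had been background-subtracted and dye-normalized by Lowess, and the deposited log10 value is the ratio of processed Cy5 to Cy3. Per the labels Cy5 was the rat and Cy3 the reference on every array, with no dye swap, while the methods describe the dyes otherwise, and the labels were followed. Probe positions are those of build rn4. A table of selected entries deposited for the series holds the authors' own comparisons and was not used.

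Log10 ratios were turned to log2, spots of controls or flagged as non-uniform were dropped, and a probe's spots were averaged with no scaling between arrays. The filter asked that, in 1 group or more, each array had a share of 0.5 or more of the probe's spots well above background in Cy5. It left 19425 of 30367 probes for 17092 genes, 690 of them lacking a value on some array. Gene names come from the files and, for 18005 probes, from a RefSeq table. The 4 group means were fitted with limma 3.58.1 in R 4.3.3 (eBayes, prior degrees of freedom 3.37), with the F test, 4 pairwise contrasts and the interaction, and the Benjamini-Hochberg adjustment ran over all tested probes, with 0.05 as the threshold. The steps were tested on simulated data. Tables and figures used Python 3.11.15, numpy 2.4.6, pandas 2.3.3 and matplotlib 3.10.9. Arrays give no read depth, and the number of rats limits the precision.

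The 9 chemokines are each reported by the probe with the highest mean log2 Cy5 signal, with any other probe. From the lists of other ligands, receptors, processing genes and inducers, the rule named genes past the threshold and the 3 of each list with the smallest p of the F test. Other receptors, Cxcl2, Cxcl3, interferon gamma, single cell type markers and the rats singled out were named after their values were seen. The chemokines and all lists were chosen with earlier results of these data known. Alternatives were normexp background correction (offset 50) with loess, the Cy5 channel alone, centred arrays, no filter and a strict filter (13596 probes), all flagged spots kept, weights per array, a trend with intensity, slide or replicate number as a block, only the 2 groups compared, the methods' ANOVA with Tukey's HSD, single slides, and leaving out each rat. Chosen after seeing the data were leaving out the 2 arrays with many non-uniform spots and the 4 arrays of high reference signal. One gene is not reported here.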

Additional observations from a re-analysis of the deposited data

Results flagged for a closer look

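In 40 sets of values (10 probes in 4 groups), 5 had 1 rat far from the rest of its group by Dixon's test at its 95% limit, which chance gives in about 1 of 20 sets. In BD 14, replicate 2 was the highest rat for Ccl2, at a log2 ratio of 4.08, and for Cxcl1, at 6.24. The same rat was the lowest of BD 14 for both probes of Cxcl12, at -0.23 for variant 3 and -2.23 for variant 1. In BD 3, replicate 2 was the lowest rat for Cx3cl1, at -1.67. Both arrays are among the 4 whose Cxcl10 reference signal was high, and the part of the reference in these values was not tested.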

How the results depend on the processing

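The chemokines called at an adjusted p under 0.05 were 0 of 9 in every comparison under all alternatives run. Counts over all probes, 0 in each pairwise comparison as reported, were otherwise few and uneven. For BD 3 against CD 3 they were 1 with normexp and loess, 208 from the Cy5 channel alone, 2 with centred arrays, 2 when both arrays rich in non-uniform spots were dropped, and 0 to 93 when single rats were left out, with 93 without CD 3 replicate 5. For BD 14 against CD 14 they were 5 with array weights, 1 by the methods' ANOVA and Tukey's HSD, 1 without the 4 arrays of high reference signal, and 0 to 1 without single rats. For CD 14 against CD 3 they were 5 from Cy5 alone, 1 by the methods' test, and 0 to 205 without single rats, with 205 without CD 3 replicate 5. For BD 14 against BD 3 they were 6 from Cy5 alone, 2 with the strict filter, 4 with an intensity trend, 99 with array weights, 23 with only the 2 groups, 1 by the methods' test, and 0 to 5 without single rats. The interaction gave 0 throughout. The F test, with 5 probes, gave 3 with normexp, 103 from Cy5 alone, 2 without a filter, 3 with the strict filter, 0 with array weights, 1 with the slide as a block, 1 by the methods' test, 0 without the 4 arrays, and 0 to 140 without single rats, with 140 without CD 3 replicate 5.

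Of the 7 log2 differences of at least 1, the 5 of Ccl2, Ccl5 and Cxcl10 kept their sign under every alternative run. With normexp and loess those of Ccl2 fell to 0.83 and 0.92. Those of Cxcl1 turned to -0.47 (CD 14 against CD 3) and -3.01 (BD 14 against BD 3) with the slide as a block. The cause was not tested. The rats share only a replicate number, since same-numbered rats of 2 groups did not deviate together in all pairs (r from -0.27 to 0.29), and not every rat correlated best with its own number. With the replicate block the F test called 1 probe and no chemokine call changed.

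The reference channel, the slides and 1 rat limit these values. Cxcl10 and Ccl2 in BD 14 rest in part on replicate 2, and BD 14 and BD 3 share no slide. With 5 or 6 rats a group and SEs from 0.694 to 1.14 for Cxcl10, Ccl2 and Cxcl1, doublings lie within the intervals.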
